A study of Homo sapiens with 14 samples.

Results

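The subject of these results was the set of nuclear genes that encode subunits of the oxidative phosphorylation complexes, read in the RNA of cells on the path from human pluripotent stem cells to pancreatic β-like cells. Gene identifiers were matched to symbols, and protein-coding genes were taken by the symbol patterns of the subunit families NDUFA, NDUFB, NDUFC, NDUFS and NDUFV, SDHA to SDHD, UQCR and CYC1, COX4 to COX8 and ATP5. This gave 83 genes of the 19895 protein-coding genes matched. By the pattern that found them, 37 belonged to complex I, 4 to complex II, 9 to complex III, 15 to complex IV and 18 to complex V. The symbols chose the genes, and no measured value entered the choice. NDUFA4 was found by a complex I pattern although it is now known as a subunit of complex IV, ATP5IF1 encodes an inhibitor of complex V, and ATP5MF-PTCD1 is a readthrough transcript of ATP5MF and its neighbour.

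RNA sequencing was done on cells of the human embryonic stem cell line MEL1, in which an INS allele carries GFP. There were 14 libraries in 9 groups. Batch 1 held a single library each of undifferentiated hPSC, definitive endoderm (DE), PP2 pancreatic progenitors and SC-β, the β-like cells differentiated directly. The expandable pancreatic progenitors at passage 9 (ePP-P9) and passage 21 (ePP-P21) and the β-like cells made from them (ePP-β) made up batch 2, with 2 libraries per group. The ePP medium held EGF, bFGF, 616452 and 1 µM I-BET151, an inhibitor of BET bromodomain proteins, so the ePP groups also carried the inhibitor, and ePPs and hPSC were kept on feeder cells. The passage from which the ePP-β libraries were made was not given. Batch 3 held 2 libraries of pancreatic progenitors given DMSO, the solvent, and 2 of progenitors given 1 µM I-BET151, both over 7 days. Nothing in the labels says that libraries of a group came from separate cultures, so p-values measure the spread between these libraries. Values are TPM, the transcript abundance scaled to a fixed total, which is corrected for transcript length and keeps no record of read depth. The listed values did not reach the same sum in each library. They summed to between 908685 TPM (ePP-P21 replicate 1) and 985497 TPM (DMSO replicate 2) and were used without rescaling unless stated.

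The oxidative phosphorylation complexes sit in the inner mitochondrial membrane. Complexes I and II pass electrons from NADH and succinate to ubiquinone, complex III passes them to cytochrome c, complex IV passes them to oxygen, and complex V uses the resulting proton gradient to make ATP. Most subunits are made from nuclear genes and imported, a few of complexes I, III, IV and V are made inside the mitochondrion, and complex II is made from nuclear genes alone. In β cells, ATP made from glucose closes potassium channels and so starts insulin release.

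Promoter sequences from RefSeq (GRCh38.p14), from 250 bases before to 50 bases after the start, were matched for 65 of the 83 genes by symbol. Each window was searched on both strands for 4 motifs of factors known for this gene set. They were GCGCATGCG for NRF1, CCGGAAG for ETS factors such as GABPA, AAGATGGCG for YY1 and TCAAGGTCA for the ERR receptors. The NRF1 motif overlaps its own reverse complement, so a single site can match on both strands, and no motif overlapped another in these windows. The NRF1 motif was found in 10 of the 65 windows (15.4%), against 2.81% of 15325 windows of protein-coding genes and 2.14% of all 27305 windows. The ETS motif was found in 20 of them (30.8%), against 14.7% and 10.9%, the YY1 motif in 9 (13.8%), against 2.99% and 1.96%, and the ERR motif in 1 (1.54%), against 0.183% and 0.326%. A match describes letters in a window and not a bound site. The 250 bases before the start are shown for 3 genes of complex II, whose levels moved in opposite directions in ePP-β, and for ATP5PF and COX6A1, which were among the larger changes of complexes V and IV. Capitals mark matches to any of the 4 motifs, and sequences run 5′ to 3′ on the strand of the gene. SDHA lies on the plus strand (chr5:218070-218319), SDHB on the minus strand (chr1:17054033-17054282), SDHD on the plus strand (chr11:112086623-112086872), ATP5PF on the minus strand (chr21:25734905-25735154) and COX6A1 on the plus strand (chr12:120437863-120438112).
SDHA: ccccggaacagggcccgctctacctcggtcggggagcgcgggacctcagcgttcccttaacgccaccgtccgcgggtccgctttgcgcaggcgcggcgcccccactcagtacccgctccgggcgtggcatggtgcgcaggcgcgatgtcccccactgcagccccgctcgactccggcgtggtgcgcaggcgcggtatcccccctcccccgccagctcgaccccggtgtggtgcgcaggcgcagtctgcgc
SDHB: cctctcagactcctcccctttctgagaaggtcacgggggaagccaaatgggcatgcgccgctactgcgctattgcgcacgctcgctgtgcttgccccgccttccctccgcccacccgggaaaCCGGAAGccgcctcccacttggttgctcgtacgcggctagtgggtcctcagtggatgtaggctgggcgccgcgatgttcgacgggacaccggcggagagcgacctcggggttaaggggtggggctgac
SDHD: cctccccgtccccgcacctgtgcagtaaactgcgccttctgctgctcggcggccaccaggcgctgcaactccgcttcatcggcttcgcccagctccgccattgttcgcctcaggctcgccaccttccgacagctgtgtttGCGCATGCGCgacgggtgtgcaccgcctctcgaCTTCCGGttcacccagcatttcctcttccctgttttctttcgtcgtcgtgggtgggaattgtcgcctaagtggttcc
ATP5PF: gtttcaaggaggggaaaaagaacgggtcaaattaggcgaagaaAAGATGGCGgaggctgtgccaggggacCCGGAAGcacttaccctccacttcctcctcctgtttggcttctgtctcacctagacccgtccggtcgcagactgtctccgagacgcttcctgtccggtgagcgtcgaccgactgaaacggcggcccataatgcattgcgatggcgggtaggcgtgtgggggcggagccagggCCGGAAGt
COX6A1: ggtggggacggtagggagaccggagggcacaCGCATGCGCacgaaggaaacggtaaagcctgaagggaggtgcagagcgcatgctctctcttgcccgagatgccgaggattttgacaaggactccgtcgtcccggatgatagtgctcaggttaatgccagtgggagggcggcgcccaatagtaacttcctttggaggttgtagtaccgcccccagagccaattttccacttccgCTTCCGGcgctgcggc
The window of SDHA held no match. In the bases shown, SDHD held NRF1 and ETS letters, SDHB held ETS letters, ATP5PF held ETS and YY1 letters, and COX6A1 held NRF1 and ETS letters. Of the promoters matched, an ETS motif was in 11 of 27 genes called higher in ePP-β, in 3 of 8 called lower and in 6 of 27 not called, and a YY1 motif was in 7, 1 and 1 of them.

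Several facts of the libraries touch the results below. Ribosomal protein genes took between 9.97% (SC-β) and 28.2% (DMSO replicate 2) of the listed TPM, and a larger share for them leaves less for every other gene. Nuclear copies of mitochondrial genes took 4.4% of ePP-β replicate 2, in which the copy MTATP8P1 was at 36310 TPM, and no more than 0.97% of any other library. The 13 subunit genes that lie in mitochondrial DNA all had a listed value of 0 in every library, so their part of complexes I, III, IV and V could not be read. Most but not all defining markers followed the labels. INS was at 20658 TPM in SC-β and at 10916 and 17374 TPM in ePP-β. Of the 8 β cell markers listed, 7 had at least 1 TPM in both ePP-β libraries, and IAPP was at 0.463 and 0.538 TPM. PTF1A, listed for pancreatic progenitors, was at or below 0.119 TPM in the ePP libraries, against 21 TPM in PP2 and 61 TPM in SC-β. GCG, the glucagon gene of α cells, was at 74281 TPM in SC-β, against 14107 and 13359.5 TPM in ePP-β. In bulk RNA, fewer cells of a type and less RNA per cell cannot be told apart.

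The subunit genes were abundant in every library. Together they took between 1.84% (PP2, and ePP-P21 replicate 2) and 2.47% (I-BET151 replicate 2) of the listed TPM. In batch 1 the share was 2.44% in hPSC, 2.41% in DE, 1.84% in PP2 and 2.12% in SC-β. In batch 2 it was 2.19% and 2.17% in ePP-P9, 2% and 1.84% in ePP-P21, and 2.18% and 1.96% in ePP-β. The ePP-P9 libraries lay above the ePP-P21 libraries, while the ePP-β libraries spread over nearly the range of both. In batch 3 the share was 2.24% and 2.29% in DMSO and 2.2% and 2.47% in I-BET151, with the DMSO libraries between the I-BET151 libraries.

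**Figure D1:**
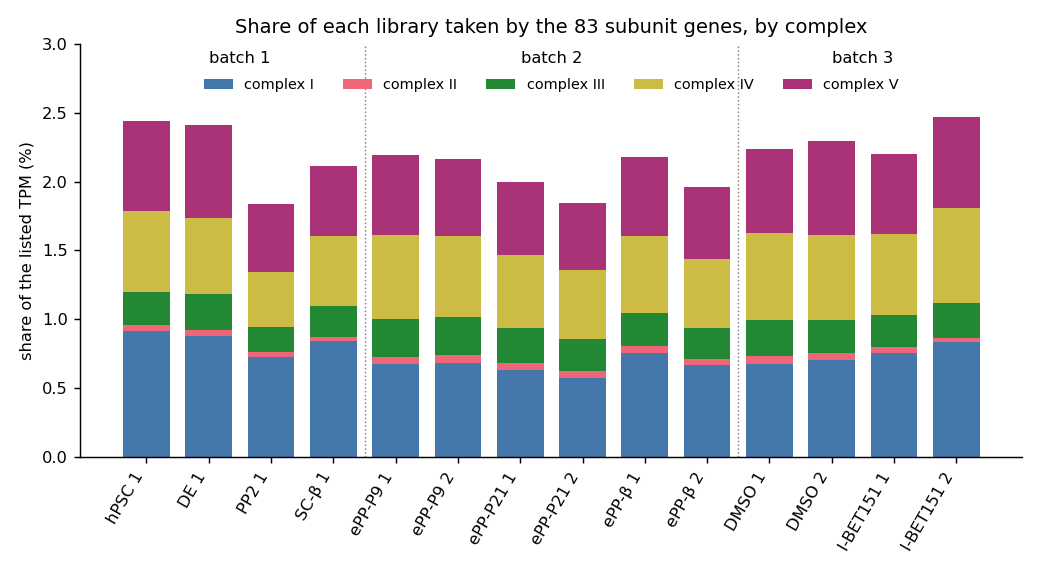
Share of the listed TPM (%, vertical axis) taken by the 83 genes in each of the 14 libraries (horizontal axis), stacked by complex, with dotted lines between the batches. The bars end between 1.84% and 2.47%, and complexes I, V and IV fill most of each bar.

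Levels differed more between subunits than between groups. Of the 83 genes, 77 had at least 1 TPM in every library. Over these, the ratio of the highest to the lowest group mean had a median of 2.11, and it stayed below 2 for 33 genes. NDUFA8, a complex I subunit, had the narrowest range at 1.34. The ratio was above 4 for 5 of them, named here after their values were seen: ATP5MC1 (5.46), NDUFS7 (5.4), ATP5IF1 (5), ATP5F1E (4.93) and NDUFS6 (4.32). By the mean of the 9 group means, the most abundant genes of the complexes were NDUFS5 (813 TPM), SDHC (136 TPM), UQCRH (773 TPM), COX7C (1360 TPM) and ATP5F1B (753 TPM). The lowest above 1 TPM were NDUFA9 (13.1 TPM), SDHA (82.9 TPM), UQCRFS1 (72.7 TPM), COX7A1 (1.37 TPM) and ATP5MF-PTCD1 (48.6 TPM). SDHA lay close to SDHB (90.3 TPM). Pseudogenes summed at their highest to 108% of SDHA and 28.4% of UQCRFS1 in a library, and how reads were shared between the copies was not tested. ePP-β was the group with the highest mean for 14 of the 77 genes with at least 1 TPM in every library, and PP2 and ePP-P21 were the lowest for 20 and 18 of them.

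Complex IV has subunits with alternative genes for different tissues, and a single gene of each pair carried the RNA here. COX4I1, the common form of the regulatory subunit 4, lay between 451 TPM (SC-β) and 808 TPM (DMSO replicate 2), with a ratio of the highest to the lowest group mean of 1.76, while COX4I2, the lung form, stayed at or below 0.35 TPM. COX6A1 lay between 563 TPM (PP2) and 1211 TPM (I-BET151 replicate 2), and COX6A2, the heart and muscle form, stayed at or below 0.438 TPM. COX6B1 lay between 417 and 659 TPM, COX7A2 between 300.4 and 614 TPM and COX7B between 37.4 and 91.2 TPM. The partners of these were low, with COX7B2 at or below 0.0113 TPM. COX6B2, the testis form, was at 3.12 TPM in hPSC and at 1.6 TPM in SC-β, and was below 1 TPM in the other 12 libraries. COX7A1, the muscle form, was at 6.2 TPM in hPSC and at 5.37 TPM in DE, and was at or below 0.23 TPM in the other 12 libraries. These low forms and ATP5MGL, a relative of ATP5MG, are the 6 genes that passed the low-value filter of none of the tests.

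The 3 genes for the c subunit of complex V, the rotor ring that turns as protons pass, differed in level and in range. ATP5MC2 had the highest mean (538 TPM over the 9 groups), followed by ATP5MC1 (205 TPM) and ATP5MC3 (86.6 TPM). ATP5MC1 was at 448 TPM in hPSC, 229 TPM in DE, 82.1 TPM in PP2 and 239 TPM in SC-β. It therefore had its highest and its lowest value within batch 1. ATP5MC3 had a group ratio of 1.51 and ATP5MC2 one of 2.14.

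The heat map shows each gene relative to its own mean.

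**Figure D2:**
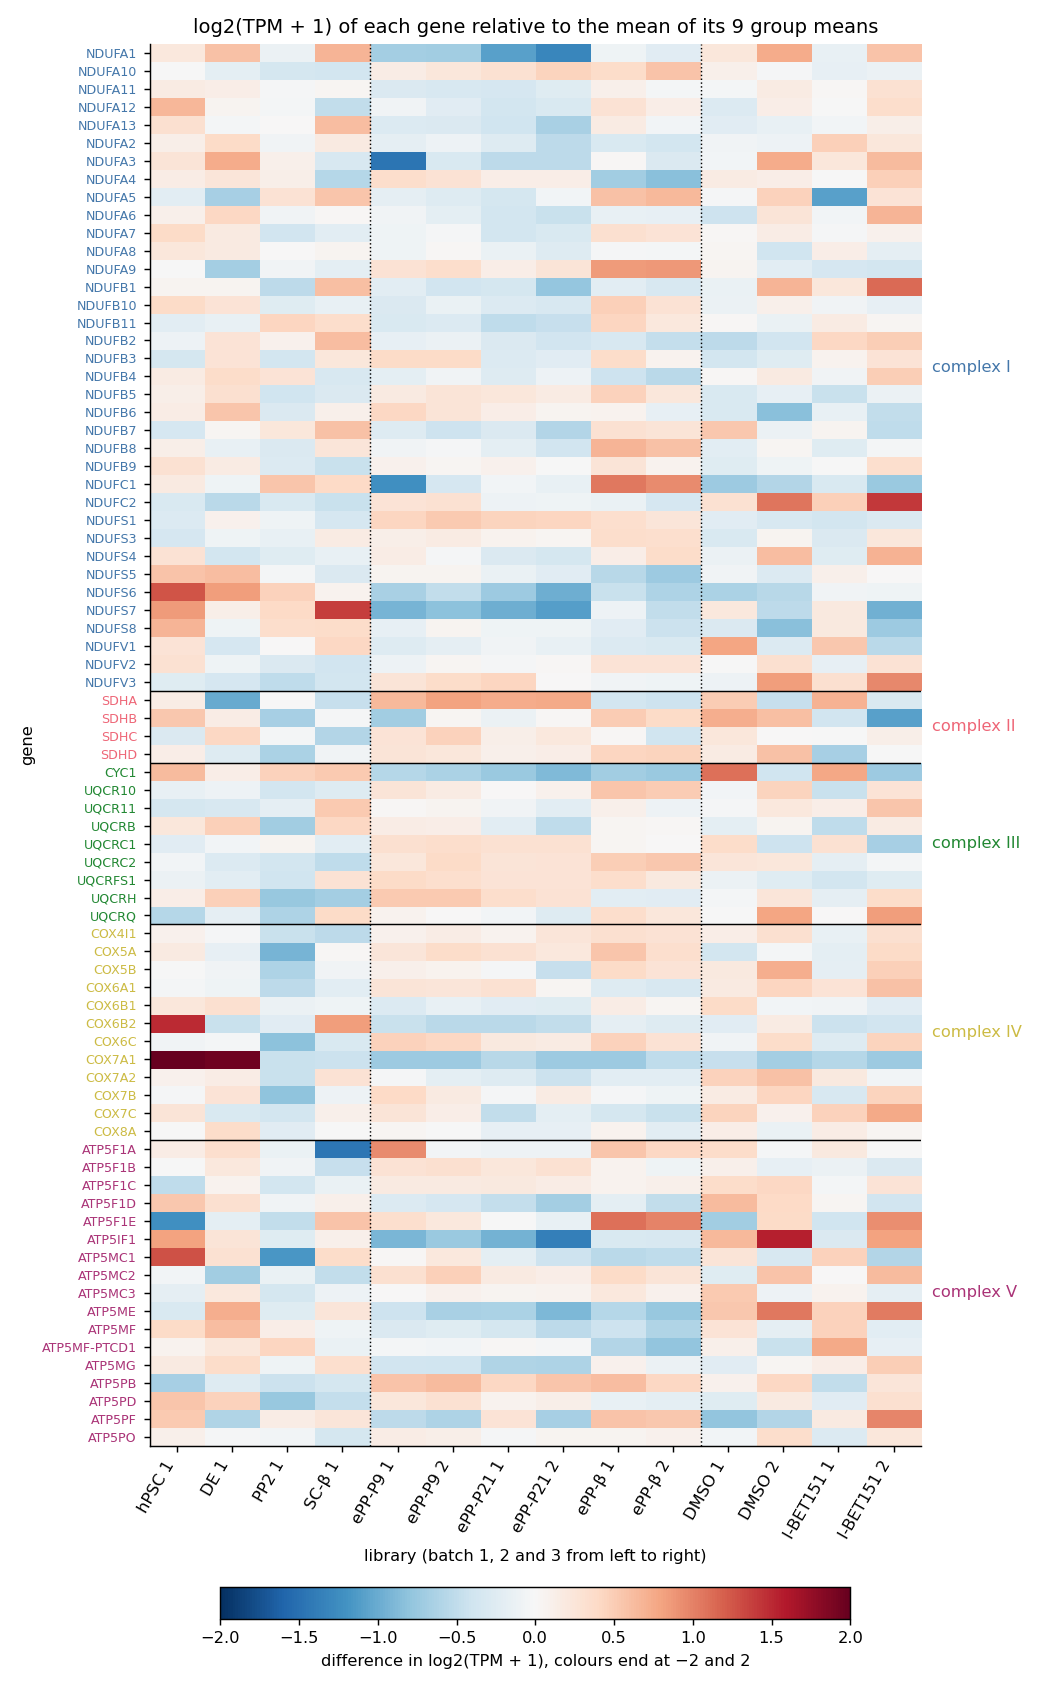
Difference in log2(TPM + 1) (colour, red above and blue below) between each library (columns) and the mean of the gene's 9 group means, for 78 of the 79 genes with at least 1 TPM in 2 libraries or more (rows, by complex). COX7A1 stands out in hPSC and DE (6.2 and 5.37 TPM), ATP5F1A in SC-β (62.3 TPM), and many rows change between replicate 1 and 2 of DMSO and I-BET151.

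The batch 1 libraries addressed how the genes differ along direct differentiation. With 1 library per stage there was no test, and the 79 genes with at least 1 TPM in 2 libraries or more were compared as differences in log2(TPM + 1). From hPSC to DE the median difference was -0.04, against -0.01 over all 20582 genes, and 38 genes were above 0 and 41 below. From DE to PP2 it was -0.29, against 0.31 over all genes, with 59 of the 79 below 0. From PP2 to SC-β it was 0.11, against -0.30 over all genes, with 53 above 0. The cytosolic ribosomal proteins had medians of 0.04, -0.97 and -0.16 in these steps, and their part in the differences was not tested. When each library was centred on its median, the medians of the subunit genes were 0.08, -0.80 and 0.45, so the sign of the step from hPSC to DE depended on the scaling. The distances of the subunit genes from the median of all genes, which such centring cannot alter, were -0.03, -0.60 and 0.41, and under quantile normalization they were -0.065, -0.46 and 0.51.

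A difference of 1 on the log2 scale was passed by few subunit genes in these steps. From hPSC to DE, 2 of the 79 (2.53%) were above 1, against 8.18% of all genes, and 3 (3.8%) below -1, against 12.3%. From DE to PP2, 1 (1.27%) was above 1, against 23.8% of all genes, and 6 (7.59%) below -1, which was close to the 7.63% of all genes. From PP2 to SC-β, 6 (7.59%) were above 1, against 10.7% of all genes, and 1 (1.27%) below -1, against 19.8%. SDHA, the flavoprotein of complex II, was at 84.7 TPM in hPSC, 37.7 TPM in DE and 76.8 TPM in PP2. ATP5PF, coupling factor 6 of complex V, was at 299 TPM in hPSC, 135 TPM in DE and 228 TPM in PP2. Both genes were lower in DE than in the stages before and after it, with 1 library each. Pseudogenes of SDHA summed to 26.4 TPM in hPSC, 40.8 TPM in DE and 48.8 TPM in PP2. In DE they were thus above SDHA itself, and how reads were shared between the copies was not tested. UQCRH, the hinge subunit of complex III, was at 1034 TPM in DE and 438 TPM in PP2, a difference of -1.24. ATP5F1A, the α subunit of complex V, was at 156 TPM in PP2 and 62.3 TPM in SC-β, a difference of -1.32. UQCRB, a small subunit of complex III, was at 173 TPM in DE, 76.6 TPM in PP2 and 166 TPM in SC-β.

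The ePP-β libraries were compared with the 4 ePP libraries of the same batch, which addressed how the genes change when expanded progenitors are turned into β-like cells. Of the 77 genes tested, 28 were higher and 14 lower in ePP-β (limma, adjusted p under 0.05), and 35 passed in neither direction. Over all 18076 genes tested, 29.2% were called higher and 28.2% lower, so the subunit genes had 36.4% called higher and 18.2% called lower. The median log2 fold change of the subunit genes was 0.12, against -0.03 over all genes, and the genes called ran from 1.44 (NDUFC1) to -1.13 (SDHA). When the log2 fold change also had to exceed 1 in size, NDUFC1 alone was called higher and SDHA alone lower, against 17.9% and 9.86% of all genes.

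The 42 genes called kept their sign in each of 16 alternative settings, while the numbers called moved with the scaling and with single libraries. The counts below, by setting and over all settings, come without a share of all genes, so they cannot be read as particular to the subunit genes. Centring each library on its median gave 17 higher and 22 lower, and removing the ribosomal protein genes before rescaling gave 18 and 19. Median centring moved the median of all genes to -0.17 and that of the subunit genes to -0.02, a shift that leaves their distance of 0.15 as it was by construction. That distance was 0.33 under quantile normalization, 0.31 without ePP-β replicate 2 and 0.083 without ePP-P21 replicate 2. Without ePP-β replicate 1 there were 18 higher and 15 lower, and without ePP-β replicate 2 there were 20 and 9. Pooling all 10 replicated libraries of batches 2 and 3 in a single fit gave 10 and 5. In every setting 13 genes were called, of which 8 were higher (NDUFA1, NDUFA7, NDUFA9, NDUFB8, NDUFB10, NDUFB11, NDUFC1 and ATP5MG) and 5 lower (NDUFA4, NDUFS5, SDHA, UQCRH and COX6A1).

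**Figure D3:**
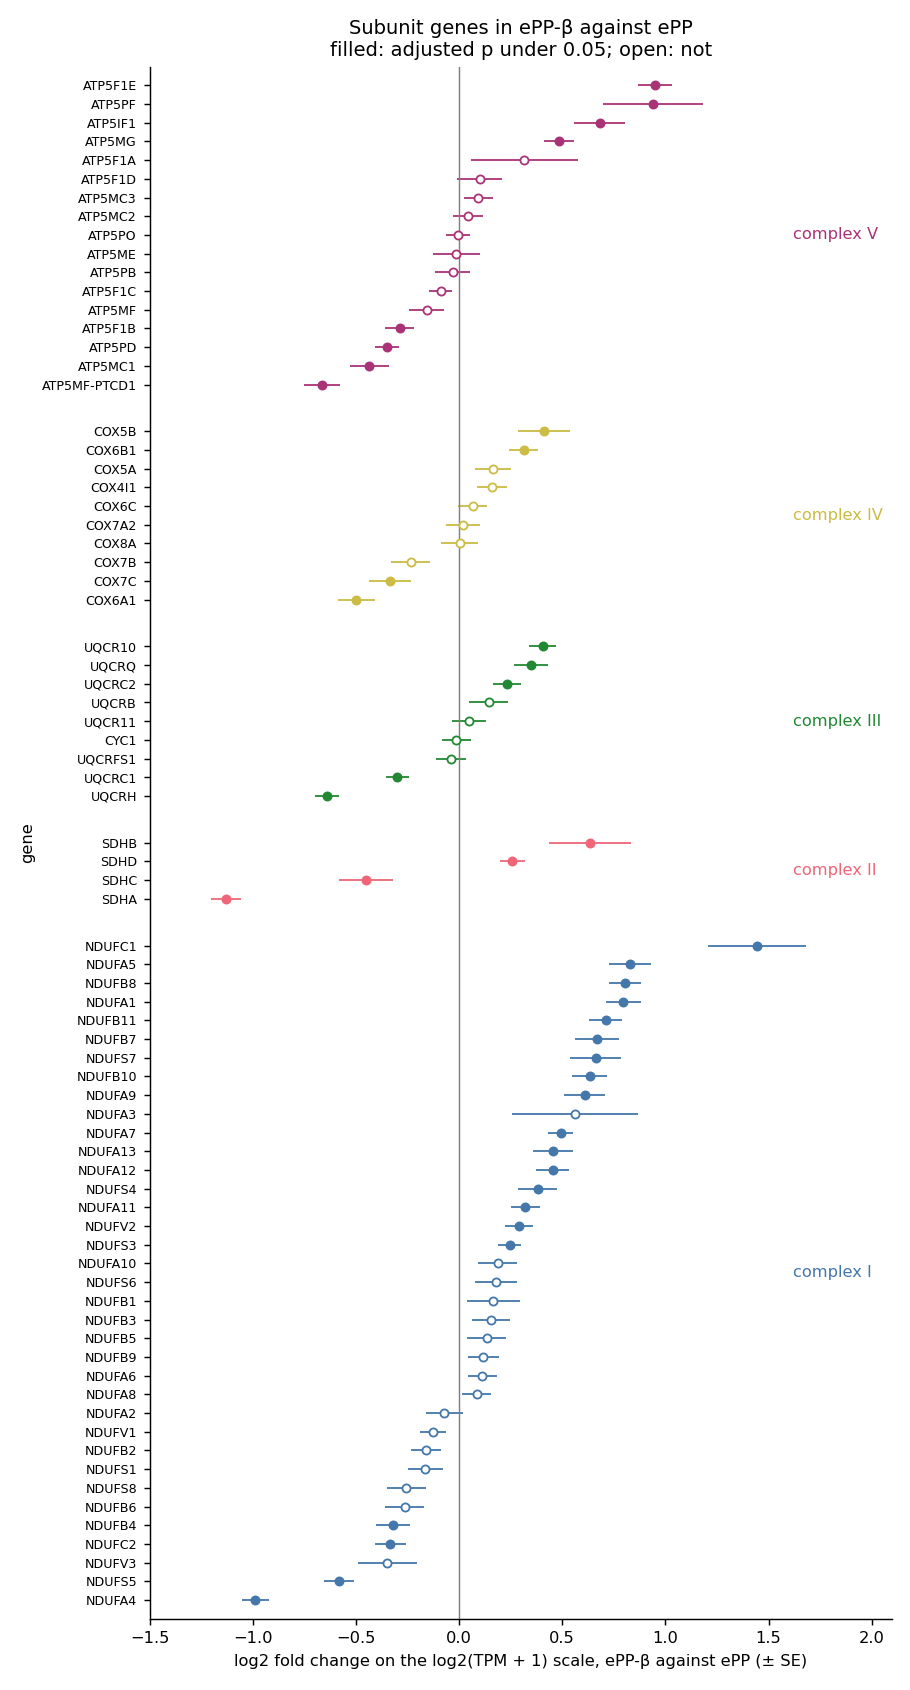
Log2 fold change on the log2(TPM + 1) scale of ePP-β (n = 2) against ePP (n = 4, horizontal axis, bars are SE) for 76 of the 77 genes tested (vertical axis, by complex). Filled points have an adjusted p under 0.05, and complex I holds 16 of the 27 filled points above 0, whereas complex II has 2 on each side.

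Complex I held 17 of the genes called higher (45.9% of its genes, against 29.2% of all genes), 4 of those called lower (10.8%, against 28.2%) and 16 not called. Its median log2 fold change was 0.19. NDUFC1 (ENSG00000109390, chromosome 4, 139266880 to 139302551), a small membrane-arm subunit, was at 16.7 and 31.8 TPM in ePP-P9, then 38.7 and 36.4 TPM in ePP-P21, and 85 and 78.8 TPM in ePP-β. The ePP-β libraries lay above the ePP libraries, with a log2 fold change of 1.44 (SE 0.24, adjusted p = 0.00303). ePP-P9 replicate 1 was low for this gene, and without it the log2 fold change was 1.22. Exons of NDUFC1 overlap those of MGARP on the same strand.

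NDUFB8, also of the membrane arm, was at 171 and 176 TPM in ePP-P9, then 158 and 138 TPM in ePP-P21, and 291 and 269.9 TPM in ePP-β, a log2 fold change of 0.80 (SE 0.08, adjusted p = 0.000384). NDUFA5, of the arm that faces the matrix, was between 42.3 and 52.4 TPM in the ePP libraries and at 82.1 and 85.8 TPM in ePP-β, a log2 fold change of 0.83 (SE 0.10, adjusted p = 0.000943). Its pseudogenes summed to between 1.85 and 7.42 TPM in these libraries. In contrast, NDUFA4 (ENSG00000189043, chromosome 7, 10931943 to 10940153) measured 235 and 225 TPM in ePP-P9, then 201 and 202 TPM in ePP-P21, and 113 and 103 TPM in ePP-β. It fell by 0.99 on the log2 scale (SE 0.07, adjusted p = 8.96e-05), with no overlap between the groups. NDUFS5, the most abundant gene of the complex, was at 757 ± 72.7 TPM (SD, n = 4) in ePP and 504 ± 41.1 TPM (SD, n = 2) in ePP-β, a log2 fold change of -0.58 (adjusted p = 0.00098). NDUFC2, the partner of NDUFC1, was at 162 and 166 TPM in ePP-P9, then 125 and 126 TPM in ePP-P21, and 122 and 106 TPM in ePP-β. The ePP-β libraries were thus closer to passage 21 than to passage 9. Exons of NDUFC2 overlap those of NDUFC2-KCTD14 on the same strand. Against the average of the passages, NDUFC2 had a log2 fold change of -0.33 (adjusted p = 0.0115), and -0.23 without ePP-β replicate 2. Its call was lost in 2 of the 16 settings. Against that average the 2 NDUFC genes moved in opposite directions, which held in each of the 16 settings.

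NDUFS7, a subunit that carries an iron-sulphur cluster and takes part in binding ubiquinone, was at 75.4, 81, 72.7 and 67 TPM in the ePP libraries and at 135 and 102 TPM in ePP-β. The ePP-β libraries lay above the ePP libraries, a log2 fold change of 0.66 (adjusted p = 0.00478).

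All 4 genes of complex II were called, 2 in each direction (50% each, against 29.2% of all genes higher and 28.2% lower). SDHA (ENSG00000073578, chromosome 5, 218303 to 257082), which holds the flavin and the succinate site, was at 121 and 135 TPM in ePP-P9, then 129 and 130.1 TPM in ePP-P21, and 59.3 and 57.3 TPM in ePP-β. The ePP-β libraries were far below the ePP libraries, and it fell by 1.13 on the log2 scale (SE 0.07, adjusted p = 7.55e-05). Pseudogenes of SDHA summed to between 21.2 and 56.3 TPM in the ePP libraries and to 17.7 and 36.6 TPM in ePP-β, and how the reads were shared out between the copies was not tested.

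SDHB, the iron-sulphur subunit, was at 52.2 and 87.5 TPM in ePP-P9, then 78.6 and 86.3 TPM in ePP-P21, and 121 and 112 TPM in ePP-β, a log2 fold change of 0.64 (SE 0.20, adjusted p = 0.0358). Its call was lost in 9 of the 16 settings, among them without either library of ePP-P21 (adjusted p = 0.0902 and 0.0703) or of ePP-β (0.13 and 0.08). SDHC, the most abundant of the 4 and a membrane anchor, was at 161 ± 16.7 TPM in ePP and 118 ± 24 TPM in ePP-β, a log2 fold change of -0.45 (adjusted p = 0.0261). SDHD, the other anchor, was at 113 ± 5.74 and 135 ± 0.76 TPM, a log2 fold change of 0.26 (adjusted p = 0.0109). The calls of SDHC and SDHD were each lost in 7 of the 16 settings. For SDHC these included leaving out ePP-P9 replicate 2 (adjusted p = 0.0643), either ePP-P21 library (0.0527 and 0.07) or ePP-β replicate 2 (0.111). For SDHD they included leaving out ePP-P9 replicate 2 (adjusted p = 0.0513) or either ePP-β library (0.0513 and 0.0567).

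**Figure D4:**
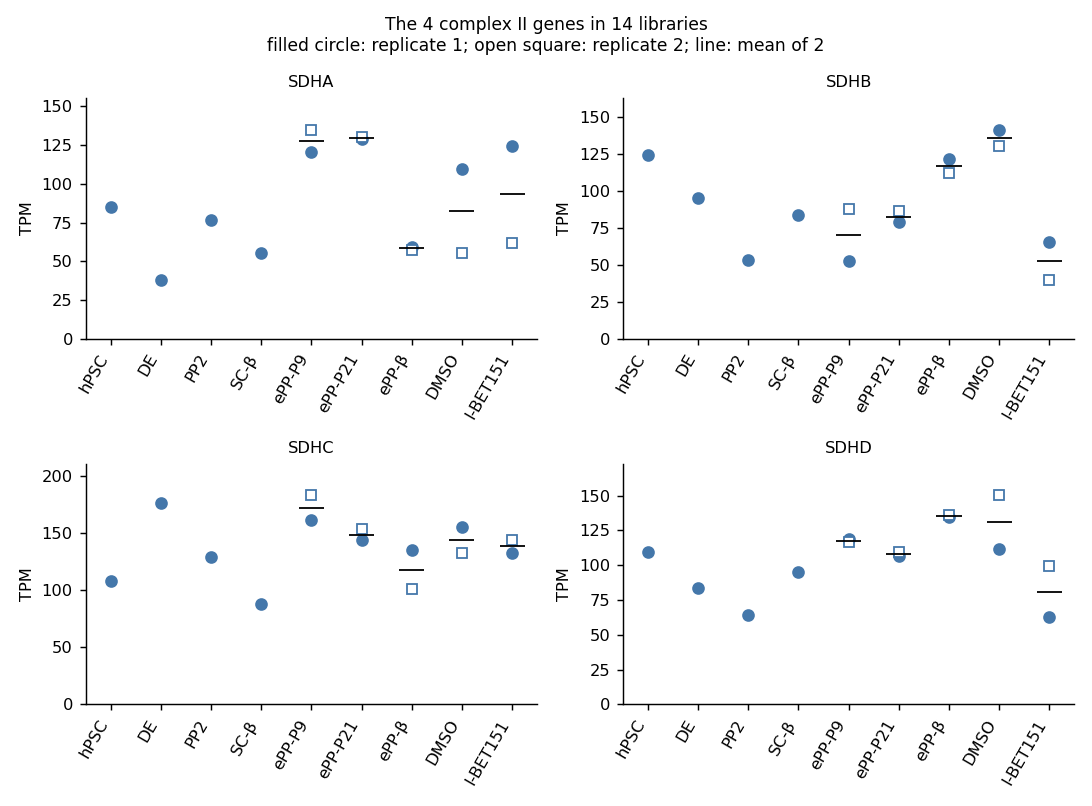
TPM (vertical axis, from 0) of SDHA, SDHB, SDHC and SDHD in the 14 libraries by group, with circles for replicate 1, squares for replicate 2 and a line at the mean of groups with 2 libraries. SDHA is at 59.3 and 57.3 TPM in ePP-β against 121 to 135 TPM in ePP, and SDHB is at 65.1 and 39.4 TPM in I-BET151 against 141 and 130.03 TPM in DMSO.

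In complex III, 3 genes were called higher (33.3%, against 29.2% of all genes), 2 lower (22.2%, against 28.2%) and 4 not called. UQCRH was at 1057 and 1058 TPM in ePP-P9, then 942 and 900.1 TPM in ePP-P21, and 636 and 629.6 TPM in ePP-β, and it fell by 0.64 on the log2 scale (SE 0.06, adjusted p = 0.000277). UQCRC1, a core subunit, was at 355 ± 4.99 TPM (SD, n = 4) and 288 ± 4.05 TPM (SD, n = 2), and its fold change on the log2 scale was -0.30 (adjusted p = 0.00467). UQCRC2, the other core subunit, had 0.23 (adjusted p = 0.0299), a call lost in 10 of the 16 settings, among them without ePP-P9 replicate 1 (0.0978), either ePP-P21 library (0.0615 and 0.0576) or either ePP-β library (0.0835 and 0.121). The small subunits UQCR10 and UQCRQ had 0.41 and 0.35 (adjusted p = 0.00258 and 0.0124), and UQCRQ did not pass without ePP-β replicate 1 (0.073).

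In complex IV, 2 genes were called higher (20%, against 29.2% of all genes), 2 lower (20%, against 28.2%) and 6 not called. COX6A1 was at 971, 963, 1005 and 829 TPM in the ePP libraries and at 680.4 and 649.8 TPM in ePP-β, a log2 fold change of -0.50 (SE 0.09, adjusted p = 0.00461), and its groups did not overlap. COX6B1 was at 431 ± 16.9 TPM in ePP and 536 ± 31.4 TPM in ePP-β, a log2 fold change of 0.31 (adjusted p = 0.0104, and 0.0594 without ePP-β replicate 1). COX7C was at 1585 and 1449 TPM in ePP-P9, then 938 and 1150 TPM in ePP-P21, and 1027 and 963 TPM in ePP-β. Its ePP-β libraries thus lay between the ePP-P21 libraries and below ePP-P9 alone. COX5B and COX7C had 0.41 and -0.33, both with adjusted p = 0.0322, and lost their calls in 9 and 8 of the 16 settings. COX5B lost it without either ePP-P9 library (adjusted p = 0.0623 and 0.0686) or either ePP-β library (0.13 and 0.0644). COX7C lost it without ePP-P9 replicate 1 (adjusted p = 0.0806) or either ePP-β library (0.06 and 0.122). COX4I1 (0.16), COX7A2 (0.02) and COX7B (-0.24) did not pass. COX4I1 was called higher under quantile normalization (0.27, adjusted p = 0.00895) and without nuclear copies of mitochondrial genes (0.19, adjusted p = 0.0377), and COX7B was called lower under median centring (-0.37, adjusted p = 0.0195) and without ribosomal protein genes (-0.34, adjusted p = 0.0265).

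In complex V, 4 genes were called in each direction (23.5% each, against 29.2% of all genes higher and 28.2% lower) and 9 not called. ATP5F1E, the ε subunit, was at 113 and 103 TPM in ePP-P9, then 89 and 80.1 TPM in ePP-P21, and 193 and 178 TPM in ePP-β, a log2 fold change of 0.95 (SE 0.08, adjusted p = 0.000229). ATP5PF (ENSG00000154723, chromosome 21, 25716503 to 25735673) measured 144 and 135 TPM in ePP-P9, then 249 and 129.6 TPM in ePP-P21, and 309 and 300.05 TPM in ePP-β, a log2 fold change of 0.94 (SE 0.24, adjusted p = 0.0183). ePP-P21 replicate 1 stood apart from the other ePP libraries for this gene but stayed below ePP-β, and the call was lost without either ePP-β library (adjusted p = 0.0673 and 0.0567). ATP5IF1, which blocks ATP hydrolysis by the complex, was at 178 ± 30.5 TPM in ePP and 282 ± 3.71 TPM in ePP-β, a log2 fold change of 0.68 (adjusted p = 0.00464). ATP5MC1 had -0.43 (adjusted p = 0.00859) and ATP5PD, a stalk subunit, had -0.35 (adjusted p = 0.00342). ATP5MC2 (0.04) and ATP5MC3 (0.09) did not pass. ATP5MF-PTCD1 had -0.67 (adjusted p = 0.00117), and its exons overlap those of ATP5MF and PTCD1, so its reads cannot be told from theirs.

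Other genes of the pathway came from lists made with earlier results of these data known, and their counts are read against the 29.2% of all genes called higher and 28.2% called lower. Of 48 assembly factors, 14 (29.2%) were higher and 9 (18.8%) lower in ePP-β, with COX14 at 64.7 ± 9.07 TPM (SD, n = 4) in ePP and 146 ± 18 TPM (SD, n = 2) in ePP-β (log2 fold change 1.17, adjusted p = 0.000702). UQCC3, of complex III assembly, had 1.52, and NDUFAF4, of complex I assembly, had -0.92. Of 14 subunits and carriers that the symbol patterns did not reach, 6 (42.9%) were higher and 3 (21.4%) lower. NDUFA4L2, the relative of NDUFA4, was at 0.0164 ± 0.0328 TPM in ePP and 1.95 ± 0.67 TPM in ePP-β, far below the level of NDUFA4 in both, and COX7A2L, a supercomplex factor, had 0.94. The carrier gene SLC25A6, which exchanges ADP for ATP, had -0.78.

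Neighbouring mitochondrial processes were read in the same way. Of 18 tricarboxylic acid cycle genes, 2 (11.1%) were higher (IDH3A 0.61 and PDHB 0.51) and 10 (55.6%) lower, with OGDH at -1.28 and PC, pyruvate carboxylase, at -1.72. Of 78 mitochondrial ribosome genes, 13 (16.7%) were higher and 23 (29.5%) lower, the latter close to the share of all genes. Of 16 regulators of mitochondrial biogenesis, 2 (12.5%) were higher and 6 (37.5%) lower. TFAM, which packs and transcribes mitochondrial DNA, was at 77.5 ± 5.02 TPM in ePP and 31.8 ± 1.23 TPM in ePP-β (log2 fold change -1.26, adjusted p = 9.28e-05). TWNK, the mitochondrial helicase, had -1.70 and ESRRG, an ERR receptor, had 1.97.

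Summed markers of other cell types and the ribosomal share moved with the same comparison, and their part in the subunit changes was not tested. All 8 proliferation genes were lower, with a summed level of 303 to 316 TPM in ePP-β against 772 to 883 TPM in ePP. Cytosolic ribosomal protein genes had 59 of 84 called lower and 3 called higher, with a median of -0.47. Summed liver marker genes were at 17150 and 19829 TPM in ePP-β, with 6 of 6 present, against 274 to 314 TPM in ePP, mostly through TTR, which islet cells also express, and ALB was at 54.9 and 42.2 TPM. Mesenchyme markers summed to 505 to 547 TPM in ePP-β and to 1396 to 1774 TPM in ePP. This difference came mostly through VIM, at 454 and 507 TPM in ePP-β against 1351 to 1725 TPM in ePP. COL3A1 overlapped between the groups (29.7 and 22.8 TPM against 24.7 to 36 TPM), and DCN was higher in ePP-β (0.956 and 1.11 TPM, against at most 0.14 TPM).

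Whether the genes changed over long passaging was asked of the libraries of passage 9 and passage 21. Most subunit genes were slightly lower at passage 21, but a single gene passed the test. Of the 77 tested, 0 were called higher and 1 lower, against 1.82% and 0.133% of all 15822 genes (limma, adjusted p under 0.05). At an unadjusted p under 0.05 there were 24 lower (31.2%, against 3.91% of all genes) and 0 higher (against 19.1%). The median log2 fold change was -0.17, against 0.13 over all genes, and 63 of the 77 were below 0 (81.8%, against 31.9% of all genes). The groups did not overlap for 47 genes lower at passage 21 (61% of those tested, against 13.1% of all genes) and for 4 higher (5.19%, against 41.3%). Centring on the median moved all genes to -0.07 and the subunit genes to -0.37, a shift that leaves their distance of -0.30 as it was by construction. That distance was -0.15 under quantile normalization and -0.19 without ePP-P21 replicate 2. The cytosolic ribosomal protein genes had a median of -0.15, with 68 of 84 below 0, and their part was not tested.

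NDUFB3 (ENSG00000119013, chromosome 2, 201071433 to 201085750), a small complex I subunit, was the gene called. It was at 194 TPM in both ePP-P9 libraries and at 123 and 127 TPM in ePP-P21, and it fell by 0.63 on the log2 scale (SE 0.07, adjusted p = 0.0359). Its exons overlap those of HYCC2 on the other strand. The call was lost without ePP-P9 replicate 1 (adjusted p = 0.0516) and without either ePP-P21 library (0.105 and 0.142), and 3 genes were called in each direction without ePP-P9 replicate 2. COX7C was at 1585 and 1449 TPM in ePP-P9, against 938 and 1150 TPM in ePP-P21, a log2 fold change of -0.54 (adjusted p = 0.08). UQCRB was at 137 TPM in both ePP-P9 libraries and at 107 and 86.7 TPM in ePP-P21, a log2 fold change of -0.50 (adjusted p = 0.0908). ATP5MC1 was at 187 and 215 TPM and then at 161 and 138 TPM (-0.42, adjusted p = 0.111).

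A few values at the early passage rested on 1 library. ATP5F1A measured 330.1 and 164 TPM at passage 9, but 159 TPM in both ePP-P21 libraries, and NDUFA3, a small complex I subunit, was at 29.3 and 66 TPM in ePP-P9. These spreads between libraries of 1 group were wider than the difference between the passages. SDHC (-0.21) and SDHD (-0.12) did not pass, nor did CYC1 (-0.21), COX5B (-0.33) and ATP5IF1 (-0.33). SDHA, SDHB, COX4I1 and ATP5MC3 had values above 0 (0.02, 0.28, 0.04 and 0.02), and those of SDHA, COX4I1 and ATP5MC3 turned below 0 when libraries were centred on the median.

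Batch 3 asked how 7 days of BET inhibition alter progenitors. No subunit gene passed the test, which did not use the replicate number (the fit that used it is given in the last paragraph). Of the 77 tested, 0 were called higher and 0 lower in I-BET151, against 0.00599% and 0.204% of all 16687 genes (limma, adjusted p under 0.05). At an unadjusted p under 0.05 there were 2 higher (NDUFB2 and ATP5PF, 2.6% against 6.21% of all genes) and 1 lower (SDHB, 1.3% against 8.98%). The median log2 fold change was -0.02, against 0.16 over all genes. The groups did not overlap for 11 genes higher in I-BET151 (14.3% of those tested, against 28.7% of all genes) and 9 lower (11.7%, against 18%).

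SDHB (ENSG00000117118, chromosome 1, 17018664 to 17054032) had the largest difference of the set in size. It was at 141 and 130.03 TPM in DMSO, against 65.1 and 39.4 TPM in I-BET151, a log2 fold change of -1.40 (SE 0.37, adjusted p = 0.181). SDHD was at 111 and 150.1 TPM in DMSO, against 62.7 and 99.5 TPM in I-BET151 (-0.70, adjusted p = 0.453). Libraries of the 2 groups did not overlap for either gene, whereas they did for SDHA (0.17) and SDHC (-0.05).

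ATP5PF was at 119 and 138 TPM in DMSO, against 236 and 409 TPM in I-BET151, a log2 fold change of 1.27 (SE 0.39, adjusted p = 0.229). NDUFB2, a small complex I subunit, was at 347 and 379.7 TPM in DMSO, against 665 and 699.8 TPM in I-BET151, a log2 fold change of 0.91 (SE 0.30, adjusted p = 0.263). Both genes had their I-BET151 libraries above their DMSO libraries. When all 10 replicated libraries entered a single fit, NDUFB2 (adjusted p = 0.00808) and SDHB (0.0216) were called and ATP5PF was not (0.0519). Exons of NDUFB2 overlap those of ADCK2 on the same strand, and exons of ATP5PF overlap those of GABPA and JAM2 on the other strand.

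**Figure D5:**
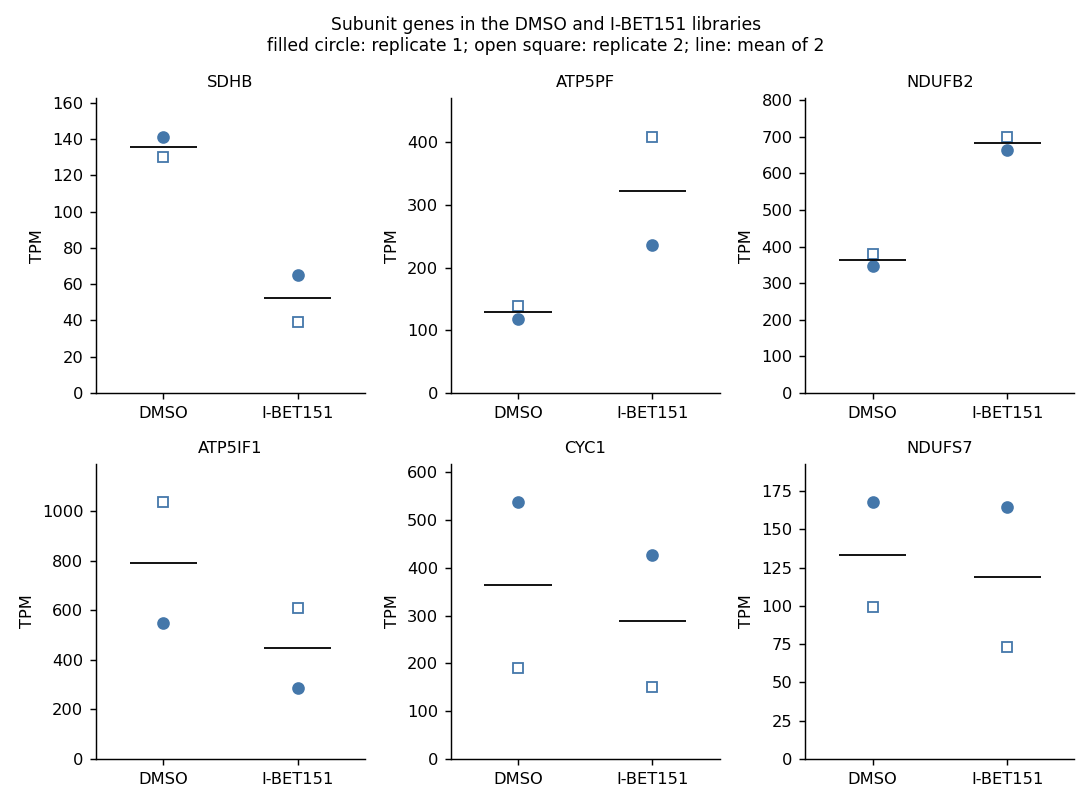
TPM (vertical axis, from 0) of SDHB, ATP5PF, NDUFB2, ATP5IF1, CYC1 and NDUFS7 in the DMSO and I-BET151 libraries, with a circle for replicate 1, a square for replicate 2 and a line at the mean. SDHB, ATP5PF and NDUFB2 have groups that do not overlap, whereas CYC1 and NDUFS7 differ more between replicates 1 and 2 than between the groups.

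The libraries of each group in batch 3 stood further apart than those of batch 2. The median size of the log2 difference between the libraries of a group was 0.33 in DMSO and 0.45 in I-BET151, against 0.07 in ePP-P9, 0.09 in ePP-P21 and 0.12 in ePP-β. For 53 of the 77 genes (68.8%) the mean difference between replicate 2 and replicate 1 was larger in size than the difference between the groups, against 49.9% of all genes. CYC1, cytochrome c1 of complex III, was at 537 and 189.9 TPM in DMSO, against 427 and 151 TPM in I-BET151. ATP5IF1 was at 549 and 1034 TPM in DMSO, against 285 and 609.5 TPM in I-BET151 (-0.85, adjusted p = 0.517). The order of the replicates was opposite for these genes and the same in both groups, so that the groups overlapped. The ribosomal share was 20.6% and 28.2% in DMSO and 17% and 27.9% in I-BET151, and its part in these differences was not tested. Liver markers summed to 10172 and 11622 TPM in DMSO and to 1482 and 3118 TPM in I-BET151, and pancreatic progenitor markers to 291 to 374 and 612 to 1088 TPM, and their part was not tested.

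None of the neighbouring lists had a gene called in I-BET151. They held 48 assembly factors, 14 subunits and carriers, 16 biogenesis regulators, 18 tricarboxylic acid cycle genes and 78 mitochondrial ribosome genes. At an unadjusted p under 0.05, 6.21% of all genes were higher and 8.98% lower. The assembly factors had 2 higher (4.17%) and 1 lower (2.08%), and the biogenesis regulators had 0 and 2 (12.5%). The tricarboxylic acid cycle genes had 0 and 1 (5.56%), and the mitochondrial ribosome genes 1 (1.28%) and 0. The subunits and carriers had 0 in each direction. Between the passages, 1 of the 78 mitochondrial ribosome genes was called higher in ePP-P21 (1.28%, against 1.82% of all genes) and 0 lower. Most of this list went the other way, with 54 of 78 below 0 and a median log2 fold change of -0.08. The gene called was MRPS25 (limma, adjusted p = 0.0499). It was at 23.2 ± 3.08 TPM at passage 9 and at 43.1 ± 3.92 TPM at passage 21 (SD, n = 2 each).

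The progenitors and β-like cells made by the 2 routes came from different batches, and the batch and the route cannot be told apart, so values are given side by side. The median log2 difference of ePP from PP2 was 0.18 over the 79 genes, against -0.18 over all genes, with 47 above 0. By complex it was 0.61 for II, 0.56 for III, 0.41 for IV, 0.30 for V and -0.12 for I. NDUFS7 was at 190.2 TPM in PP2 and between 67 and 81 TPM in the ePP libraries. COX5A, a complex IV subunit, was at 83 TPM in PP2 and between 185 and 206 TPM in the ePP libraries. The median log2 difference of ePP-β from SC-β was 0.07, against 0.14 over all genes. ATP5F1A was at 62.3 TPM in SC-β and at 252 and 229 TPM in ePP-β, and NDUFS7 was at 377 TPM in SC-β and at 135 and 102 TPM in ePP-β. NDUFS7 was thus lower in the batch 2 libraries than in the batch 1 library for both pairs.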

How the data were processed

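RNA was sequenced as paired ends from 14 libraries. According to the study's methods and the labels, the authors aligned reads to GRCh38 with HISAT2 (2.1.0), estimated transcripts with stringtie and summed them per gene, and the deposited values are TPM per gene. The annotation release and strand setting are not given in the sources used here, and the depth is unknown because TPM keeps none.

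Identifiers were matched to GENCODE release 44 (60370 of 60624). Values were taken as log2(TPM + 1), and fold changes on that scale understate changes of low genes. Genes with at least 1 TPM in 2 libraries of a fit were tested with limma (3.58.1, R 4.3.3, intensity trend, two-sided), with Benjamini-Hochberg adjustment over all genes tested, within batches 2 and 3, and calls had an adjusted p under 0.05. ePP-β was set against the average over the 2 passages. Scripts were tested on simulated data. Samples were grouped by title. The genes and lists were chosen with earlier results of these data known. Up to 3 genes per complex and direction by size of change were named, or up to 2 without overlap where none passed, with the isoform pairs, the SDH genes and ATP5IF1 always named. NDUFS7, NDUFA3, NDUFS6, COX5A and the further values of CYC1, UQCRB and ATP5F1A were named after their values were seen. Scaling, filters, pseudocount, single libraries and the fit were varied. The counts cover all genes of the set, but 1 gene is not reported here by itself.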

Additional observations from a re-analysis of the deposited data

How the results depend on the processing

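TPM carries no depth, groups had 1 or 2 libraries, batches held different groups, and copies or overlapping genes can share reads, so small changes of single subunits were the least secure. For none of the changes below was the cause tested. Leaving out a library of a pair assumes that the library left varies like the other groups. Of the values of named genes under the alternatives, 246, 239 and 396 kept direction and side of the threshold for I-BET151, ePP-P21 and ePP-β, and 12, 15 and 9 turned sign, none of them a called gene. The rest kept their sign but crossed the threshold. A call was lost in 9 values for ePP-P21 and in 71 for ePP-β. A call was gained in 8, 3 and 4 values for I-BET151, ePP-P21 and ePP-β.

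In ePP-β the genes called higher and lower were 17 and 22 under median centring (median -0.019), 18 and 19 without ribosomal protein genes (median 0.011), 10 and 5 with all 10 replicated libraries and 1 and 1 beyond a fold change of 1, and leaving out libraries gave 18 to 27 and 9 to 15. In ePP-P21, 0 were lower with no filter, median centring (median -0.37), quantile normalization, no intensity trend, all 10 libraries or a fold change beyond 1, and leaving out libraries gave 0 to 3 in each direction. In I-BET151, all 10 libraries gave 1 higher and 1 lower, and the median ran from -0.11 to 0.084 when libraries were left out. Median differences of stages moved to 0.083 (DE from hPSC), -0.80 (PP2 from DE), 0.45 (SC-β from PP2), 0.60 (ePP from PP2) and -0.092 (ePP-β from SC-β) under median centring, to -0.51, 0.42 and 0.42 for PP2 from DE, SC-β from PP2 and ePP from PP2 under quantile normalization, and to -0.53, 0.39 and 0.18 for PP2 from DE, ePP from PP2 and ePP-β from SC-β without ribosomal protein genes.

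Turned signs in ePP-P21 were SDHA (-0.18), COX4I1 (-0.17) and ATP5MC3 (-0.19) under median centring, SDHA (-0.038), COX6B1 (0.022) and ATP5MC3 (-0.052) under quantile normalization, and SDHA (-0.024), COX4I1 (-0.0083) and ATP5MC3 (-0.026) without ribosomal protein genes. In ePP-β they were COX7A2 (-0.12), ATP5MC2 (-0.093) and ATP5MC3 (-0.043) under median centring, and COX7A2 (-0.089), ATP5MC2 (-0.063) and ATP5MC3 (-0.012) without ribosomal protein genes. Leaving out libraries gave, in I-BET151, SDHA -0.33 to 0.67, SDHC -0.16 to 0.059, COX4I1 -0.37 to 0.087, COX7B -0.62 to 0.15, COX6A1 -0.028 to 0.27, ATP5MC1 -0.55 to 0.50, ATP5MC2 -0.25 to 0.56 and ATP5MC3 -0.58 to 0.044. It gave, in ePP-P21, SDHA -0.060 to 0.10, SDHB -0.086 to 0.65, COX4I1 -0.048 to 0.12, COX6A1 -0.22 to 0.056, COX6B1 -0.095 to 0.032 and ATP5MC3 -0.018 to 0.054, and in ePP-β, COX7A2 -0.026 to 0.062 and ATP5MC2 -0.016 to 0.10.

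Replicate numbers are shared by the groups, but no label ties a number to a culture or day. The differences between replicate 2 and 1 correlated at 0.68 between DMSO and I-BET151 and at -0.01 between ePP-P9 and ePP-P21. With the replicate number as a block, 2 genes were higher (NDUFB2 and ATP5PF) and 4 lower (SDHB, SDHD, ATP5F1D and ATP5IF1) in I-BET151. With it, 0 were lower in ePP-P21, and 28 were higher and 14 lower in ePP-β. These counts and those by setting above come without a share of all genes, so they cannot be read as particular to the subunit genes.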
